A study of Mus musculus with 21 samples.

Results

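This account follows 35 genes of glycolysis and of the cellular response to low oxygen through 21 single-cell RNA libraries of mouse CD8 T cells. The members were taken by gene symbol from a fixed list, and all 35 were among the 17516 symbols of every table. They fall into 16 glycolytic enzymes, 12 other genes of the hypoxia response, and 7 sugar and lactate transporters or regulators of glycolysis. Levels are given as CPM: the UMIs of a gene (tags that each mark 1 captured RNA molecule) scaled to the total of its library. Of the members, 30 reached a mean of 20 CPM over the 21 libraries and entered the counts of differences. The other 5, Pfkm, Ldhb, Pfkfb3, Pfkfb4 and Vegfa, are described by their levels.

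The cells were OT1 T cells, which carry a transgenic T cell receptor for a peptide of ovalbumin. Naive cells were taken on day 0 with no treatment. All other cells were stimulated with beads that engage CD3 and CD28 and were then kept without added cytokine (days 3 and 5) or with IL-2, IL-2v or IL-15 at 5 or 50 IU/mL (days 3, 5 and 10). IL-2v is the name in the growth text for a form of IL-2 that the treatment labels call mutant IL-2bg, and the titles of these libraries read bg. IL-15 signals through receptor chains that it shares with IL-2. The doses of the cytokines are matched in IU/mL only, and amounts of protein were not compared. A difference between cytokines at equal dose thus cannot be told apart from a difference in amount or potency per unit. For 3 libraries whose titles give IL-2 at 50 IU/mL the treatment label reads interleukin-3, and for 3 with IL-15 at 50 IU/mL in the title it reads interleukin-16. The titles were followed. The extraction text speaks of T cells sorted from tumours and the growth text of cultured cells, and the cells are described here as cultured. The strain, age and number of the donor mice were not stated. Each condition had 1 library, so no difference below could be set against a spread between replicates, and no test was made. A difference of at least 2-fold is counted as higher or lower. With summed RNA, fewer cells that express a gene and less of its RNA per cell cannot be told apart, except where values per cell are given.

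Glycolysis turns glucose into pyruvate in the cytosol, and activated T cells are known for running it fast even with oxygen present, exporting much of the product as lactate. Hypoxia-inducible factors, of which HIF-1α is the one encoded by Hif1a, bind a short DNA element and raise the RNA of glycolytic enzymes and of many other genes. Prolyl hydroxylases such as those of Egln1 and Egln3 mark HIF-1α for destruction when oxygen is plentiful, and they are HIF targets themselves. In T cells, receptor signals and IL-2 are known to feed the same pathway through mTOR without low oxygen. The oxygen level of these cultures was not stated.

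The libraries held 3250 to 7105 cells and 10589950 to 32648496 UMIs. The 95% Poisson interval of a member's value had a half-width of at most 5.98% of the value at 100 CPM and more and at most 16.2% between 10 and 100 CPM. These intervals cover counting error only. The cells carried the T cell markers: Cd3d was seen in 93.0% to 99.5% of the cells of a library and Cd8b1 in 54.5% to 92.0%. Among markers of other cells, Ms4a1, Lyz2, Csf1r and Ncr1 were each in at most 0.126% of cells, while Cd4 reached 1.49%, Cd68 7.39%, Cd79b 7.45% and Klrb1c 13.0%. Any 2 libraries shared 1 to 19 cell barcodes. The share of cells with a UMI of the proliferation genes Mki67 or Top2a ran from 3.01% in naive cells to 86.9% in the day 3 library of high IL-2v (50 IU/mL).

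The HIF element has the core ACGTG, and GCGTG is the other form of it. RefSeq promoter windows of 300 bases around a gene's start (build GRCm38.p6, which is mm10) were at hand for 33 of the 35 members, Ero1l under the symbol Ero1a. The letters were searched on both strands. ACGTG stood in at least 1 window of 25 of these 33 genes (75.8%), against 31.8% of the genes that reached a mean of 20 CPM and 21.8% of all genes with a window. It stood in all 11 matched genes of the hypoxia group, in 10 of the 16 enzymes (62.5%) and in 4 of the 6 matched transporters and regulators. A gene with more windows has more places for the letters. Window by window, ACGTG was in 59.6% of 47 member windows and 27.7% of the windows of the genes that reached that mean, and GCGTG in 59.6% and 53.4%. By group, ACGTG was in 44.4% of the 27 windows of the enzymes and 91.7% of the 12 of the hypoxia genes. For the transporters and regulators it was 62.5% of 8. ACGTG is also part of CACGTG, the element of MYC and related factors, which was in 12.8% of member windows, 11% of the windows of genes that reached that mean and 7.15% of all windows. Windows of 4 members are shown because their RNA differed in pattern on day 5 with 50 IU/mL IL-15. The enzymes Pgk1 and Aldoc were high there, while Bnip3 and Slc16a3 were far below their levels with IL-2v or 50 IU/mL IL-2. With 5 IU/mL IL-15 Pgk1 and Aldoc were low as well, at 328 and 15.1 CPM. Each window is given 5′ to 3′ in the direction of the gene. Capitals mark ACGTG and GCGTG on either strand (CACGT and CACGC when read from the other strand). The windows lie at chrX:106186850-106187149 (plus strand), chr11:78322823-78323122 (plus strand), chr7:138909457-138909756 (minus strand) and chr11:120948817-120949116 (plus strand).
Pgk1: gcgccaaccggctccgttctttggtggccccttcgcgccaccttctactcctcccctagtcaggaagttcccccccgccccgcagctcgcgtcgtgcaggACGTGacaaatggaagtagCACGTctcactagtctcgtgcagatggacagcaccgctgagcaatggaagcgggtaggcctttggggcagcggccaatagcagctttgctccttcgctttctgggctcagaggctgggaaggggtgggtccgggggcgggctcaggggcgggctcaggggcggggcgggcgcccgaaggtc
Aldoc: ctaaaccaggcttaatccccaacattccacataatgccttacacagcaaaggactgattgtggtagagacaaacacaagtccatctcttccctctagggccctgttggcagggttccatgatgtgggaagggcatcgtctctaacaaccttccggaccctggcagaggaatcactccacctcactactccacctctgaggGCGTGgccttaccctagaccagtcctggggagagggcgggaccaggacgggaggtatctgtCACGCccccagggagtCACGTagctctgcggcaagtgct
Bnip3: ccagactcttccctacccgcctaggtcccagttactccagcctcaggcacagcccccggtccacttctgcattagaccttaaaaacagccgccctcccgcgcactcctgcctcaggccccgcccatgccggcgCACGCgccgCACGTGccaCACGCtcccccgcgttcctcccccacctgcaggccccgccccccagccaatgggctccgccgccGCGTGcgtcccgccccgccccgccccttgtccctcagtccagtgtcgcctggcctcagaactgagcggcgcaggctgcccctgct
Slc16a3: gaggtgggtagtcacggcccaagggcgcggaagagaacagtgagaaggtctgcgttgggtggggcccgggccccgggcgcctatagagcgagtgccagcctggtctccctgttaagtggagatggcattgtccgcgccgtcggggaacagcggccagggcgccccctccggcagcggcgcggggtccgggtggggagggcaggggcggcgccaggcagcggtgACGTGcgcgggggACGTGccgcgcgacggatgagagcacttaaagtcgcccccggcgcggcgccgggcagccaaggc
All 4 windows hold ACGTG at least once, and in Bnip3 it lies inside CACGTG. Aldoc has a further window (chr11:78323948-78324247) with GCGTG and no ACGTG. The enzymes Eno1, Gpi1, Ldhb, Pfkl, Pfkp and Tpi1 had no ACGTG in any window. Of these, Eno1, Gpi1 and Tpi1 were also at least 2-fold above the cells without cytokine on day 5 with 50 IU/mL IL-15. The letters alone do not show that a factor was bound there.

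The summed UMIs of the 16 glycolytic enzymes made up 0.157% of the naive library and 1.32% on day 3 without cytokine. On day 3 they took 1.69% and 2.0% under IL-2 at 5 and at 50 IU/mL, 1.64% and 1.31% under IL-2v, and 1.30% and 1.34% under IL-15. Paired values below are always given in this order, and the doses are called low and high. By day 5 the share was 0.293% without cytokine, 0.511% and 1.95% under IL-2, 1.31% and 1.73% under IL-2v, and 0.309% and 0.874% under IL-15. The libraries thus lay within a narrow band on day 3 and far apart on day 5, when low IL-15 stood near the cells without cytokine. On day 10 the enzymes took 1.05% and 1.69% under IL-2, 0.535% and 1.27% under IL-2v, and 0.197% and 1.14% under IL-15. The highest share, on day 3 with 50 IU/mL IL-2, was 12.7 times the naive one. With TMM scaling the highest was 50 IU/mL IL-2 on day 10. The 12 other hypoxia genes took 0.0773% of the naive library, 0.274% on day 3 and 0.121% on day 5 without cytokine, and at most 0.529%, on day 5 with 50 IU/mL IL-2. In cells without a UMI of Mki67 or Top2a their highest share, 0.521%, was on day 3 with 50 IU/mL IL-2. With 50 IU/mL IL-15 the enzymes took 5.55 times their naive share on day 5, and the 12 hypoxia genes 2.65 times. With 5 IU/mL IL-2v the same day gave 8.32 and 4.38 times, and without cytokine 1.86 and 1.56 times. Mif had the most UMIs of the 12 summed over the libraries. Without Mif, left out after its values were seen, the hypoxia genes took 1.81 times their naive share with high IL-15, 4.07 times with low IL-2v and 1.70 times without cytokine, so that high IL-15 stood near the cells without cytokine only when Mif was left out.

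**Figure D1:**
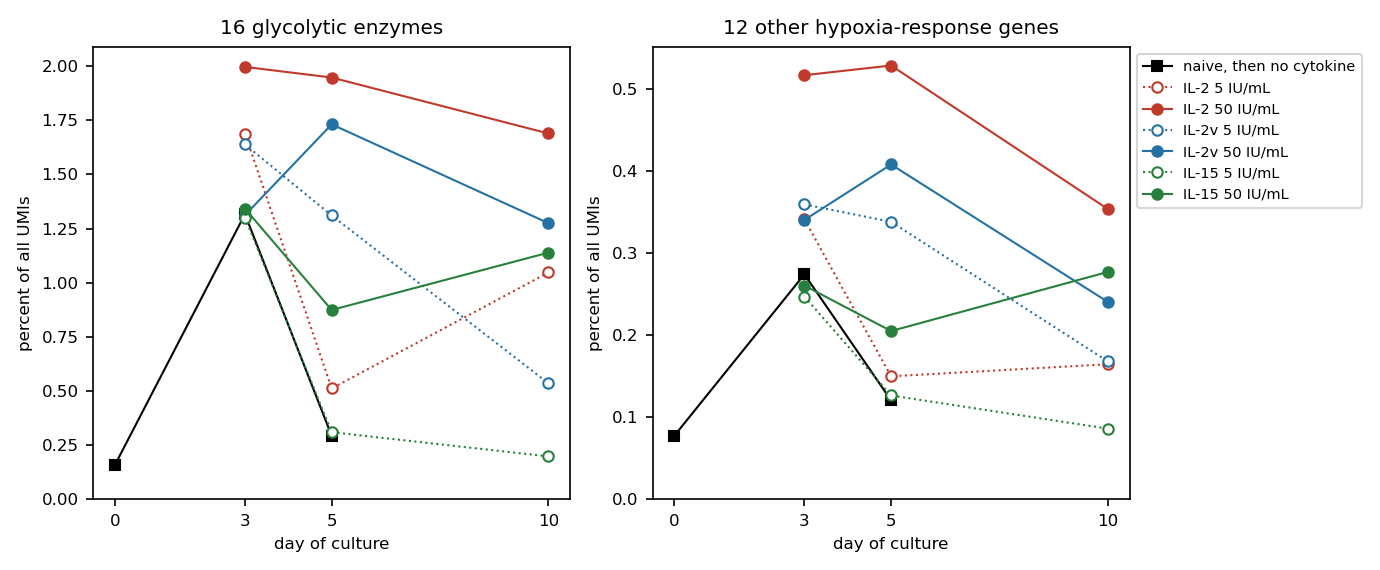
Summed UMIs of the 16 glycolytic enzymes (left) and of the 12 other hypoxia-response genes (right) as a percent of all UMIs of a library (vertical axes) by day of culture (horizontal axes), with 1 point per library, lines joining the same condition, open points for 5 IU/mL and filled points for 50 IU/mL. On day 5 the enzyme shares run from 0.293% without cytokine to 1.95% with 50 IU/mL IL-2.

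**Figure D2:**
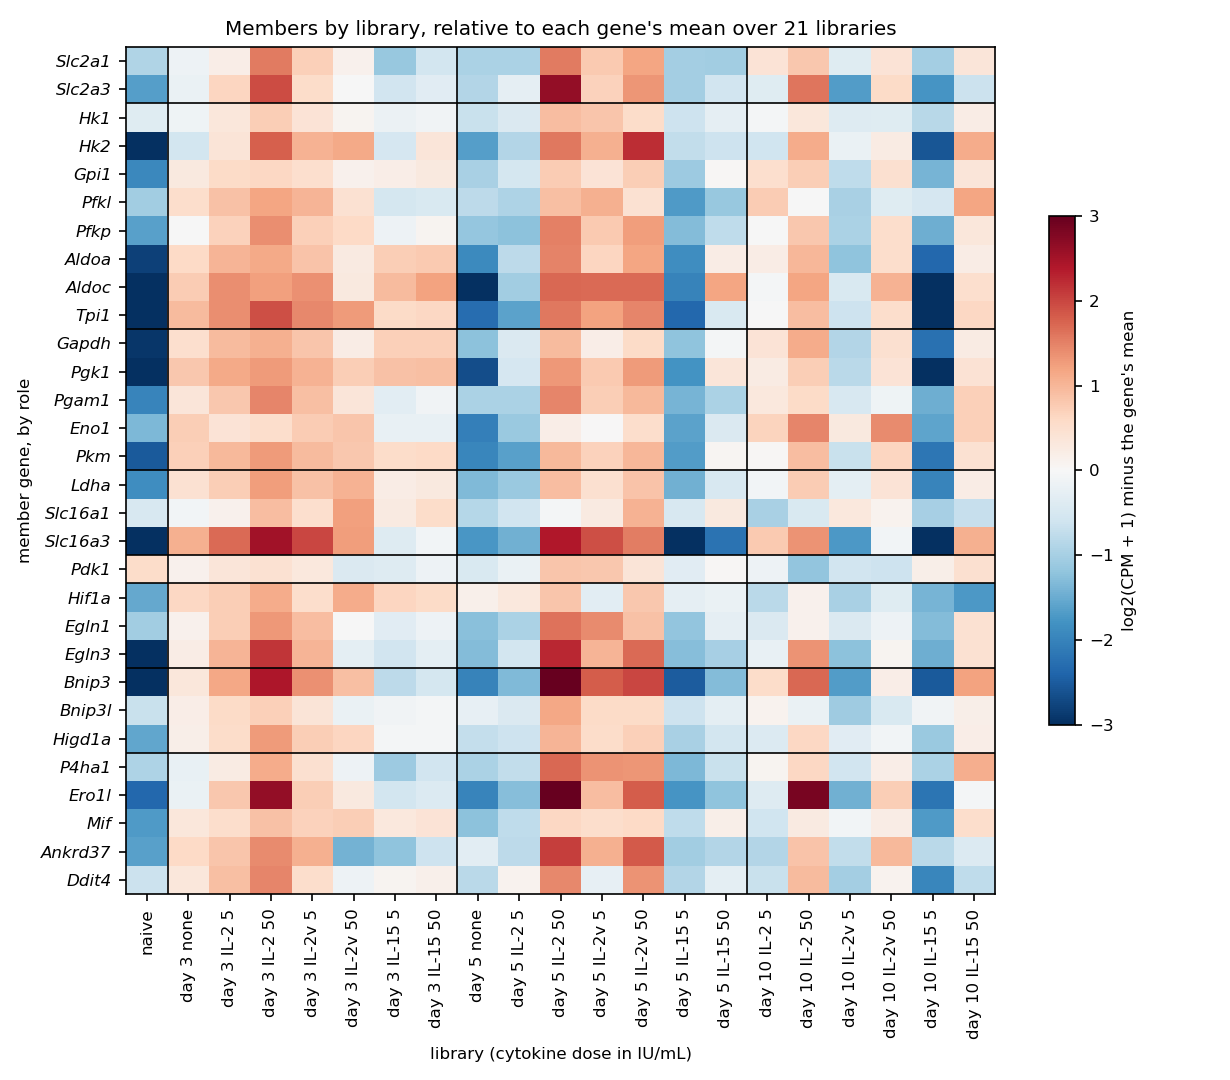
Level of the 30 members that reached a mean of 20 CPM (rows, grouped by role) in the 21 libraries (columns, doses in IU/mL), as log2(CPM + 1) minus the gene's mean over the libraries; colours stop at 3 in either direction. The columns of 50 IU/mL IL-2 are red on all 3 days for most genes. Among the exceptions are Pdk1, Slc16a1 and Bnip3l, which are below their means on day 10.

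Slc2a1 and Slc2a3 encode the glucose transporters GLUT1 and GLUT3. On day 3 Slc2a3 was at 62.1 CPM without cytokine, 113 and 284 under IL-2, 107 and 71.0 under IL-2v, and 47.9 and 57.0 under IL-15, against 22.3 CPM in naive cells. On day 5 Slc2a3 was at 38.4 CPM without cytokine, 59.2 and 455 under IL-2, 117 and 182 under IL-2v, and 35 and 47.5 under IL-15. On day 10 Slc2a3 was at 55.5 and 222 CPM under IL-2, 21.6 and 107 under IL-2v, and 20.3 and 45.3 under IL-15. Slc2a3 was highest with 50 IU/mL IL-2 on each day. On day 3 both IL-15 libraries lay below the cells without cytokine. On day 3 Slc2a1 was at 23.1 CPM without cytokine, 29.9 and 77.2 under IL-2, 42.6 and 28.2 under IL-2v, and 11.1 and 17.2 under IL-15, against 13.2 CPM in naive cells. On day 5 Slc2a1 was at 12.8 CPM without cytokine, 12.8 and 77.7 under IL-2, 44.8 and 59.4 under IL-2v, and 12.1 and 12.1 under IL-15. On day 10 Slc2a1 was at 34.8 and 45.8 CPM under IL-2, 19.9 and 34.5 under IL-2v, and 12.2 and 33.3 under IL-15. On day 5 Slc2a1 split the libraries into 4 at about the naive level (no cytokine, low IL-2 and the 2 IL-15 libraries) and 3 above it (high IL-2 and the 2 IL-2v libraries).

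Hexokinases phosphorylate glucose as it enters the cell, and Hk2 encodes the form known for its induction in growing cells. On day 3 Hk2 was at 26.4 CPM without cytokine, 51.2 and 138 under IL-2, 81.6 and 86.2 under IL-2v, and 27.4 and 50.8 under IL-15, against 2.0 CPM in naive cells. On day 5 Hk2 was at 11.8 CPM without cytokine, 20.7 and 118 under IL-2, 82.3 and 185 under IL-2v, and 22.9 and 24.9 under IL-15. On day 10 Hk2 was at 25.6 and 85.2 CPM under IL-2, 33.6 and 46.3 under IL-2v, and 5.75 and 85.3 under IL-15. Hk2 exceeded the cells without cytokine in all 6 cytokine libraries on day 5, and on day 3 in all but low IL-15. There the gap was within counting error, at 27.4 against 26.4 CPM (a log2 difference of 0.05). TMM scaling moved the median of all genes by more than that (−0.08). Its highest value came with 50 IU/mL IL-2v on day 5, not with IL-2. Hk1, the form found in most cells, moved less, from 29.7 to 103 CPM.

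Aldolases split fructose 1,6-bisphosphate, and Aldoc encodes the isoform known best from brain. On day 3 Aldoc was at 108 CPM without cytokine, 169 and 149.9 under IL-2, 165 and 77.5 under IL-2v, and 123 and 147 under IL-15, against 1.03 CPM in naive cells. On day 5 Aldoc was at 6.89 CPM without cytokine, 30.2 and 211 under IL-2, 208 and 208 under IL-2v, and 15.1 and 144 under IL-15. On day 10 Aldoc was at 61.2 and 144 CPM under IL-2, 45.8 and 131 under IL-2v, and 1.59 and 89.9 under IL-15. Aldoc had the largest difference of the members on activation and the second widest range of the 30. On day 5 the 2 IL-2v libraries and high IL-2 were within a few CPM of each other, and high IL-15 lay below them, while the other 3 libraries were far lower. Aldoa, the main aldolase of muscle and blood cells, ran from 223 to 4381 CPM, with 419 without cytokine and 1839 with high IL-15 on day 5.

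Triose phosphate isomerase, encoded by Tpi1, brings all of the split sugar into the lower pathway. On day 3 Tpi1 was at 771 CPM without cytokine, 1045 and 1519 under IL-2, 1088 and 969.5 under IL-2v, and 591 and 616 under IL-15, against 29.9 CPM in naive cells. On day 5 Tpi1 was at 81.6 CPM without cytokine, 131 and 1206 under IL-2, 923 and 1096 under IL-2v, and 77.0 and 293 under IL-15. On day 10 Tpi1 was at 394 and 754 CPM under IL-2, 261 and 573 under IL-2v, and 35.2 and 619 under IL-15. All 7 libraries of day 3 were far above naive cells, and on day 10 low IL-15 had returned to within a few CPM of them. Among the other enzymes of the upper pathway, the isomerase Gpi1 ranged from 182 to 1181 CPM. The phosphofructokinase genes, which encode the main control step, gave 60.2 to 537 CPM for Pfkp, 13.9 to 108 CPM for Pfkl and 2.96 to 18.8 CPM for Pfkm. On day 3 Pfkl was low with IL-15, at 32.0 and 34.1 CPM against 68.4 without cytokine.

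Gapdh and Pgk1 encode the first steps of the energy-yielding part of glycolysis, and Pgk1 makes its first ATP. On day 3 Pgk1 was at 1984 CPM without cytokine, 2500.1 and 2733 under IL-2, 2354 and 1901 under IL-2v, and 2102 and 2119 under IL-15, against 102 CPM in naive cells. On day 5 Pgk1 was at 179.6 CPM without cytokine, 800.4 and 2820.0 under IL-2, 1956 and 2775 under IL-2v, and 328 and 1469 under IL-15. On day 10 Pgk1 was at 1346 and 1908 CPM under IL-2, 643 and 1521 under IL-2v, and 125 and 1546 under IL-15. On day 5 every cytokine library had more Pgk1 than cells without cytokine, by a log2 difference of 0.87 with low IL-15 and up to 3.96 with high IL-2. On day 3 Gapdh was at 2982 CPM without cytokine, 4082 and 4457 under IL-2, 3756 and 2449 under IL-2v, and 3494 and 3491 under IL-15, against 276 CPM in naive cells. On day 5 Gapdh was at 895 CPM without cytokine, 1559 and 4096 under IL-2, 2426 and 3152 under IL-2v, and 915 and 2031 under IL-15. On day 10 Gapdh was at 2785 and 4533 CPM under IL-2, 1141 and 2959 under IL-2v, and 447 and 2514 under IL-15. On day 5 Gapdh, like Pgk1, was lowest without cytokine and highest with high IL-2, over a smaller range. Its value is uncertain, since 63.2% of the 50-base words at the 3′ end of its transcript also occur in other genes. The same holds for Eno1 (68.1%) and Mif (56.1%). Bnip3, Higd1a, Ankrd37 and Gpi1 overlap a gene on the opposite strand over 11.5% to 22.7% of their exon bases, and other members over at most 5.6%. Pkm (15.3%) and Pfkm (10.2%) overlap a gene on the same strand. Whether the counting used strand was not given.

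Pkm encodes pyruvate kinase, the last step of glycolysis. On day 3 Pkm was at 1555 CPM without cytokine, 1887 and 2327 under IL-2, 1843 and 1682 under IL-2v, and 1405 and 1451 under IL-15, against 166 CPM in naive cells. On day 5 Pkm was at 245 CPM without cytokine, 308 and 1861 under IL-2, 1531 and 1889 under IL-2v, and 296 and 989.9 under IL-15. On day 10 Pkm was at 976 and 1805 CPM under IL-2, 597 and 1486 under IL-2v, and 211 and 1301 under IL-15. High IL-15 on day 5 lay between the cells without cytokine and the IL-2v libraries. The mutase Pgam1 ranged from 58.0 to 644 CPM. With high IL-15 on day 5 it was at 119 CPM, as without cytokine (119), although its neighbours Pgk1 and Pkm were higher. The enolase gene Eno1 ranged from 85.2 to 988 CPM and its highest libraries fell on day 10, at 988 CPM for high IL-2 and 965 for high IL-2v.

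Ldha encodes the lactate dehydrogenase subunit that favours lactate. On day 3 Ldha was at 1295 CPM without cytokine, 1577 and 2248 under IL-2, 1739 and 1958 under IL-2v, and 1095 and 1164 under IL-15, against 257 CPM in naive cells. On day 5 Ldha was at 379 CPM without cytokine, 439.5 and 1807 under IL-2, 1316 and 1712 under IL-2v, and 346 and 674 under IL-15. On day 10 Ldha was at 886 and 1615 CPM under IL-2, 773 and 1256 under IL-2v, and 239 and 1111 under IL-15. Ldha was highest with 50 IU/mL IL-2 on each day, and low IL-15 on day 10 stood just under naive cells. Ldhb, the subunit of the reverse direction, was at 9.53 CPM in naive cells and between 0.459 and 4.03 on day 10. Lactate leaves the cell through monocarboxylate transporters, MCT1 (Slc16a1) and MCT4 (Slc16a3), of which MCT4 is a known HIF target.

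On day 3 Slc16a3 was at 56.9 CPM without cytokine, 89.4 and 157 under IL-2, 111 and 65.2 under IL-2v, and 20.3 and 25.4 under IL-15, against 0.975 CPM in naive cells. On day 5 Slc16a3 was at 7.21 CPM without cytokine, 9.28 and 145 under IL-2, 106 and 78.8 under IL-2v, and 2.34 and 4.94 under IL-15. On day 10 Slc16a3 was at 46.5 and 69.1 CPM under IL-2, 7.41 and 25.1 under IL-2v, and 2.36 and 57.2 under IL-15. Slc16a3 was low with IL-15. On day 3 both IL-15 libraries were below the cells without cytokine, and on day 5 they were again, at 2.34 and 4.94 CPM, where both IL-2v libraries and high IL-2 were at 78.8 CPM or more. On day 10 high IL-15 had reached the level of the IL-2 libraries, while low IL-2v had dropped to that of day 5 without cytokine. On day 3 Slc16a1 was at 25.8 CPM without cytokine, 29.9 and 53.0 under IL-2, 39.1 and 66.2 under IL-2v, and 33.0 and 40.9 under IL-15, against 19.5 CPM in naive cells. On day 5 Slc16a1 was at 14.6 CPM without cytokine, 18.2 and 26.4 under IL-2, 33.0 and 57.3 under IL-2v, and 19.5 and 33.8 under IL-15. On day 10 Slc16a1 was at 13.5 and 19.7 CPM under IL-2, 34.6 and 29.6 under IL-2v, and 13.3 and 16.6 under IL-15. Slc16a1 was highest with 50 IU/mL IL-2v on days 3 and 5 and varied less than Slc16a3.

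Pdk1 encodes a kinase that inhibits pyruvate dehydrogenase and so the conversion of pyruvate to acetyl-CoA, and it is a textbook HIF target. On day 3 Pdk1 was at 115 CPM without cytokine, 135 and 144 under IL-2, 130.0 and 76.6 under IL-2v, and 79.0 and 94.4 under IL-15, against 153 CPM in naive cells. On day 5 Pdk1 was at 75.4 CPM without cytokine, 91.3 and 186 under IL-2, 183 and 138 under IL-2v, and 82.7 and 107 under IL-15. On day 10 Pdk1 was at 93.1 and 45.1 CPM under IL-2, 70.1 and 67.9 under IL-2v, and 118 and 145 under IL-15. Pdk1 ran apart from most members: naive cells were among its highest libraries, and on day 10 high IL-2 was the lowest of all 21 while high IL-15 was near naive. On day 5, though, it was highest with high IL-2 and then low IL-2v, as Egln1 and Slc16a3 were. Its Pearson correlation with Ldha over the 21 libraries was 0.11, against 0.99 for Tpi1 with Ldha (no p is given, since libraries share a culture series). The highest correlations of Pdk1 with another member were 0.66 for Bnip3l and 0.54 for Egln1. Pfkfb3 and Pfkfb4, whose products set the level of an activator of phosphofructokinase, were low, at 5.18 to 46.8 CPM and 1.12 to 5.29 CPM, and both were highest on day 5 with 50 IU/mL IL-2.

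Hif1a encodes the oxygen-regulated subunit of HIF-1, which is controlled mainly as a protein. On day 3 Hif1a was at 304 CPM without cytokine, 331 and 429 under IL-2, 285 and 424 under IL-2v, and 309 and 294 under IL-15, against 67.0 CPM in naive cells. On day 5 Hif1a was at 218 CPM without cytokine, 244 and 353 under IL-2, 159 and 348 under IL-2v, and 164 and 173 under IL-15. On day 10 Hif1a was at 111 and 217 CPM under IL-2, 99.2 and 154 under IL-2v, and 74.3 and 58.7 under IL-15. Hif1a RNA was lower on day 10 than on day 5 in all 6 pairs of the same cytokine and dose. On day 5 low IL-2v and both IL-15 libraries had less Hif1a than cells without cytokine.

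Egln1 and Egln3 encode the prolyl hydroxylases PHD2 and PHD3. On day 3 Egln3 was at 29.0 CPM without cytokine, 51.4 and 113 under IL-2, 51.2 and 19.9 under IL-2v, and 16.1 and 19.8 under IL-15, against 2.11 CPM in naive cells. On day 5 Egln3 was at 9.39 CPM without cytokine, 16.5 and 122 under IL-2, 51.1 and 82.0 under IL-2v, and 9.67 and 11.8 under IL-15. On day 10 Egln3 was at 21.1 and 64.0 CPM under IL-2, 9.95 and 26.3 under IL-2v, and 8.24 and 34.0 under IL-15. On day 5 Egln3 in both IL-15 libraries lay near the cells without cytokine, and it was highest with high IL-2. On day 3 high IL-2v was under the cells without cytokine and low IL-2v above. On day 3 Egln1 was at 65.8 CPM without cytokine, 101 and 149.5 under IL-2, 115 and 59.6 under IL-2v, and 47.1 and 53.9 under IL-15, against 28.6 CPM in naive cells. On day 5 Egln1 was at 24.7 CPM without cytokine, 30.8 and 189 under IL-2, 161 and 112 under IL-2v, and 25.8 and 50.0 under IL-15. On day 10 Egln1 was at 44.0 and 65.5 CPM under IL-2, 44.0 and 53.7 under IL-2v, and 23.7 and 82.6 under IL-15. Egln1 was also highest with high IL-2 on days 3 and 5, when low IL-2v was above high IL-2v. On day 10 it was highest with high IL-15.

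Bnip3 and Bnip3l encode receptors that mark mitochondria for removal, and Bnip3 is a classical HIF target. Higd1a encodes a mitochondrial protein of the respiratory chain induced by hypoxia. On day 3 Bnip3 was at 78.8 CPM without cytokine, 142 and 343 under IL-2, 164 and 118 under IL-2v, and 35.6 and 42.9 under IL-15, against 2.38 CPM in naive cells. On day 5 Bnip3 was at 14.8 CPM without cytokine, 24.4 and 568 under IL-2, 223 and 254 under IL-2v, and 10.2 and 24.8 under IL-15. On day 10 Bnip3 was at 92.2 and 208 CPM under IL-2, 19.0 and 72.1 under IL-2v, and 10.2 and 145 under IL-15. Bnip3 had the widest range of the 30 members. High IL-2 was highest on each day, and on days 3 and 5 low IL-15 was below the cells without cytokine. On day 5 high IL-15 and low IL-2 had about the same low level. On day 3 Bnip3l was at 241 CPM without cytokine, 311 and 342 under IL-2, 276 and 182 under IL-2v, and 194 and 199.5 under IL-15, against 131 CPM in naive cells. On day 5 Bnip3l was at 177 CPM without cytokine, 156 and 466 under IL-2, 314 and 311 under IL-2v, and 135 and 170.0 under IL-15. On day 10 Bnip3l was at 224 and 182 CPM under IL-2, 100.2 and 152 under IL-2v, and 196 and 238 under IL-15. Bnip3l varied far less, and naive cells already had more of it than low IL-2v on day 10.

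On day 3 Higd1a was at 309 CPM without cytokine, 399.8 and 672 under IL-2, 461 and 432 under IL-2v, and 263 and 264 under IL-15, against 92.0 CPM in naive cells. On day 5 Higd1a was at 166 CPM without cytokine, 177 and 562 under IL-2, 403 and 452 under IL-2v, and 140.3 and 186 under IL-15. On day 10 Higd1a was at 207 and 422 CPM under IL-2, 215 and 259 under IL-2v, and 126 and 313 under IL-15. Higd1a was highest with 50 IU/mL IL-2 on each day, with both IL-2v libraries next on days 3 and 5.

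Ero1l encodes an oxidase that forms disulfide bonds in the endoplasmic reticulum and is induced by hypoxia. On day 3 Ero1l was at 85.9 CPM without cytokine, 174 and 611 under IL-2, 165 and 121 under IL-2v, and 67.1 and 73.8 under IL-15, against 18.2 CPM in naive cells. On day 5 Ero1l was at 24.2 CPM without cytokine, 40.2 and 782 under IL-2, 189 and 350.5 under IL-2v, and 28.1 and 41.9 under IL-15. On day 10 Ero1l was at 74.9 and 708 CPM under IL-2, 35.4 and 164 under IL-2v, and 20.6 and 94.4 under IL-15. High IL-2 stood apart on every day. Its Ero1l values were 611, 782 and 708 CPM, and the highest value of any other library was 350.5. Ankrd37, a small ankyrin repeat gene, and Ddit4, whose product REDD1 restrains mTOR, are also induced by hypoxia.

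On day 3 Ankrd37 was at 25.3 CPM without cytokine, 30.0 and 45.9 under IL-2, 35.3 and 5.46 under IL-2v, and 6.53 and 10.2 under IL-15, against 4.60 CPM in naive cells. On day 5 Ankrd37 was at 13.0 CPM without cytokine, 9.13 and 72.7 under IL-2, 35.4 and 61.7 under IL-2v, and 7.43 and 8.46 under IL-15. On day 10 Ankrd37 was at 8.43 and 30.4 CPM under IL-2, 9.37 and 33.3 under IL-2v, and 9.01 and 12.1 under IL-15. On day 3 Ankrd37 divided the 2 doses of IL-2v: low IL-2v was above the cells without cytokine and high IL-2v was the lowest library of the day. By day 5 both were above. The mean of Ankrd37 over the 21 libraries was 22.6 CPM, and it reached 20 CPM only with the high IL-2 libraries included. Its place in the counts for high IL-2 is thus partly set by the filter. On day 3 Ddit4 was at 119 CPM without cytokine, 175 and 258 under IL-2, 134 and 84.6 under IL-2v, and 98.9 and 104 under IL-15, against 59.7 CPM in naive cells. On day 5 Ddit4 was at 52.5 CPM without cytokine, 100.5 and 255 under IL-2, 78.0 and 241 under IL-2v, and 50.7 and 76.4 under IL-15. On day 10 Ddit4 was at 58.9 and 182 CPM under IL-2, 45.3 and 101 under IL-2v, and 23.3 and 54.9 under IL-15. Ddit4 was high with 50 IU/mL IL-2 on each day, and on day 5 high IL-2v was close to it while low IL-2v was far below. The collagen hydroxylase gene P4ha1 ranged from 13.7 to 122 CPM, with 22.5 CPM for high IL-15 and 92.6 for high IL-2v on day 5. Mif, a cytokine gene, ranged from 349 to 2092 CPM. Vegfa, the angiogenic factor, had 1 UMI in the naive library and reached 42.4 CPM with 50 IU/mL IL-2v on day 5.

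Activation without cytokine was read from naive cells to day 3. Of the 30 members, 23 were at least 2-fold higher and 0 lower, where 11% of the 5495 genes tested were higher and 5.77% lower. The median log2 difference of the members was 2.17, against −0.05 over all genes. By group, 13 of 14 enzymes, 8 of 11 hypoxia genes and 2 of 5 transporters and regulators were higher. The differences were largest for Aldoc (5.75), Slc16a3 (4.87), Tpi1 (4.64), Bnip3 (4.56) and Pgk1 (4.26). Pdk1 was the only member with a negative difference (−0.41). Cycling cells made up 3.01% of the naive library and 60.0% on day 3. Between days 3 and 5 without cytokine, 20 of the 30 members became at least 2-fold lower and 0 higher (all genes: 8.68% lower, 2.78% higher), with a median of −1.32. All 30 had a negative sign, as did 51% of all genes. Of the enzymes, 13 of 14 were 2-fold lower, and Hk1 (−0.53) was not. Aldoc (−3.79), Pgk1 (−3.46) and Tpi1 (−3.22) went furthest, and Bnip3l (−0.45) and Hif1a (−0.47) moved least. The cycling share was 13.8% on day 5. Within a library, the median log2 difference of the 14 enzymes between cells with and without a UMI of Mki67 or Top2a was −0.07 to 0.42 over the 21 libraries, highest with low IL-15 on day 5, where the enzymes took 0.385% and 0.277%. With the cells that carry such a UMI left out, 25 members were at least 2-fold higher on activation (8.54% of all genes in these cells) and 20 lower between days 3 and 5 (4.98%).

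On day 3 high IL-2 was the only library in which more than a few members were at least 2-fold above the cells without cytokine, which served as the control of all 6 comparisons. With 50 IU/mL IL-2, 14 of 30 were at least 2-fold higher, against 5.13% of all genes, and 0 lower (2.97%), with a median of 0.92. These were 3 of 14 enzymes (Hk2, Pfkp and Pgam1), 7 of 11 hypoxia genes and 4 of 5 transporters and regulators, led by Ero1l (2.82), Hk2 (2.34) and Slc2a3 (2.17). With 5 IU/mL IL-2 only Ero1l was higher by that measure (1.01, with 0.200% of all genes higher and 0.0910% lower). Ero1l fell under 2-fold with TMM scaling. In cells without a UMI of Mki67 or Top2a 0 members were higher (0.247% of all genes). Even so, 29 of 30 members had a positive sign, as did 69% of all genes (29 of 30 and 49% with TMM scaling). With 5 IU/mL IL-2v Hk2 and Bnip3 were higher (0.237% of all genes). With 50 IU/mL IL-2v Hk2 and Slc16a1 were higher (6.46%) and Ankrd37 lower (1.75%), so that the members' share was near that of all genes. With IL-15 a few members were at least 2-fold below the cells without cytokine. At 5 IU/mL these were Ankrd37 (−1.80), Slc16a3 (−1.44), Bnip3 (−1.12) and Pfkl (−1.07), with 0.218% of all genes lower. At 50 IU/mL they were Ankrd37 (−1.22) and Slc16a3 (−1.13), with 0.200% lower and 0.819% higher among all genes. In cells without a UMI of Mki67 or Top2a 6 were lower at 5 IU/mL (0.323% of all genes) and 5 at 50 IU/mL (0.304%). TMM scaling also added members at 50 IU/mL. In the same libraries Gapdh (both 0.23), Aldoa (0.13 and 0.19) and Aldoc (0.18 and 0.44) lay slightly above the cells without cytokine. Tpi1 (−0.38 and −0.32), Ldha (−0.24 and −0.15) and Pkm (−0.15 and −0.10) lay below. Eno1 and Pgam1 lay further below. Eno1 was at 306 and 305 CPM against 599 without cytokine, and Pgam1 at 187 and 215 against 297.

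On day 5 the cytokines separated. The 3 libraries of high IL-2, low IL-2v and high IL-2v had nearly all members above the cells without cytokine, again the control of all 6 comparisons. With 50 IU/mL IL-2, 28 of 30 were at least 2-fold higher (13.8% of all genes) and 0 lower (6.64%), with a median of 2.46. Ankrd37 is among the 28, though it passed the filter only through the high IL-2 libraries. With IL-2v, 27 of 30 were higher at 5 IU/mL (9.32% of all genes, median 1.83) and 27 at 50 IU/mL (17.9%, median 2.18). The leading genes with 5 IU/mL IL-2v were Aldoc (4.72), Bnip3 (3.83) and Slc16a3 (3.70), and the 3 below 2-fold were Bnip3l, Ddit4 and Hif1a. With 50 IU/mL IL-2 Bnip3 (5.17) and Ero1l (4.96) led. All 14 enzymes were higher in each of these 3 libraries. With 5 IU/mL IL-2 the 3 members higher were Pgk1 (2.15), Aldoc (1.98) and Aldoa (1.11), all enzymes (2.57% of all genes). With 5 IU/mL IL-15 Aldoc was higher (1.03; 2.0%) and Slc16a3 lower (−1.30; 0.182%). The cycling share on day 5 moved with the members in part, from 13.8% without cytokine over 18.7%, 21.1% and 24.6% with low IL-2, low IL-15 and high IL-15 to 39.8%, 50.4% and 66.7% with low IL-2v, high IL-2 and high IL-2v. Over the 6 comparisons 97 member values were at least 2-fold higher (8.65% of the values of all genes), and 96 with cells that carry a UMI of Mki67 or Top2a left out (6.39%).

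High IL-15 on day 5 gave a divided picture. Of the 30 members 11 were at least 2-fold higher (6.28% of all genes), and 9 of these were enzymes: Aldoc (4.20), Pgk1 (3.02), Aldoa (2.13), Pkm (2.01), Tpi1 (1.83), Eno1 (1.62), Gapdh (1.18), Hk2 (1.02) and Gpi1 (1.01). The other 2 were Mif (1.40) and Slc16a1 (1.16). Of the 11 hypoxia genes Mif was the only one past 2-fold, and Egln1 (0.99) came closest. Values nearer to the cells without cytokine were those of Bnip3 (0.71), Ero1l (0.77), Egln3 (0.30), P4ha1 (0.27), Slc2a1 (−0.08), Slc16a3 (−0.47) and Ankrd37 (−0.57). The median was 1.10 for the 14 enzymes and 0.30 for the 11 hypoxia genes, against 0.04 for all genes. Low IL-2v on the same day, where the enzymes took more of the library (1.31% against 0.874%), had both groups high, with medians of 2.02 and 1.77. The enzymes were not uniform either. Pfkl (−0.34), Pgam1 (−0.01), Hk1 (0.40), Pfkp (0.41) and Ldha (0.83) were under 2-fold with high IL-15.

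**Figure D3:**
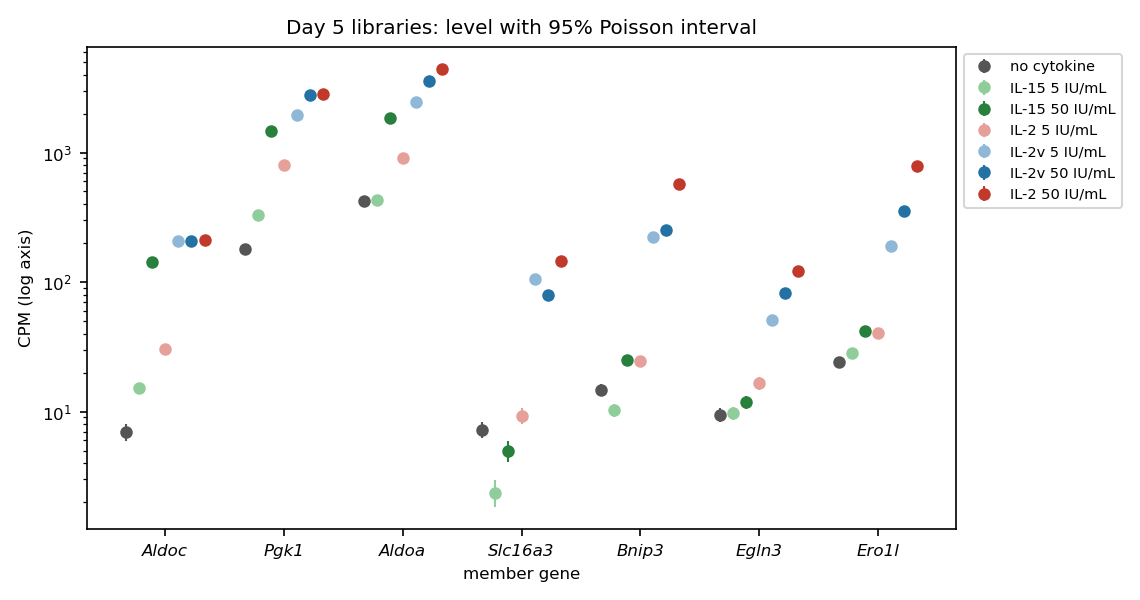
Level in CPM (vertical log axis) of 7 members (horizontal axis) in the 7 libraries of day 5, with 95% Poisson intervals as bars, most of them smaller than the points. With 50 IU/mL IL-15 (dark green) Aldoc is at 144 CPM, near the blue and dark red points, while Slc16a3 is at 4.94 CPM and Egln3 at 11.8 CPM, near the grey points without cytokine.

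IL-2v and IL-2 were compared at equal day and equal dose in IU/mL. At 5 IU/mL they were alike on day 3, when 0 members were 2-fold apart (0.0364% of all genes higher, 0.0728% lower with IL-2v). On day 5, 23 of 30 were higher with IL-2v (6.48% of all genes, with 0.819% lower, median 1.58), with Slc16a3 (3.37), Bnip3 (3.14) and Tpi1 (2.81) in the lead. On day 10 the direction was the opposite: 11 were lower (6.62%) and Slc16a1 was higher (6.22%), with a median of −0.69. TMM scaling moved the median of all genes by 0.169 there, and fewer members were then 2-fold lower. Slc16a3 (−2.50) and Bnip3 (−2.22) were again the furthest. At 50 IU/mL the median of the members was below 0 on each day. On day 3, 11 members were lower (1.64% of all genes, with 1.24% higher), of which 7 were hypoxia genes and 1 an enzyme, led by Ankrd37 (−2.86), Egln3 (−2.45) and Ero1l (−2.33). On day 5 Slc2a3, Bnip3 and Ero1l were lower (1.84%) and Slc16a1 higher (5.06%). On day 10, 5 were lower (1.16%, with 3.86% higher): Ero1l (−2.10), Bnip3, Slc16a3, Egln3 and Slc2a3. No member had the same sign in all 6 pairs with a median of 2-fold (all genes: 0.746% higher and 0.255% lower). With day 5 left out 3 did, under a rule over fewer pairs for which the share of all genes was not taken.

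Most members were lower with IL-15 than with IL-2. On days 3, 5 and 10, 11, 4 and 22 of 30 members were at least 2-fold lower at 5 IU/mL (0.437%, 1.07% and 9.43% of all genes) and 16, 22 and 5 at 50 IU/mL (2.69%, 6.02% and 8.24%). No member was higher at 5 IU/mL (0.0364%, 0.382% and 1.66% of all genes) or on days 3 and 5 at 50 IU/mL (2.53% and 4.0%). On day 10 at 50 IU/mL Pdk1 (1.67) and Pfkl (1.20) were (9.44%). Slc2a1, Slc2a3, Pfkp, Tpi1, Slc16a3, Egln3, Bnip3, Ero1l and Ddit4, 9 of 30, were lower in all 6 pairs with a median of at least 2-fold, against 1.29% of all genes. For Slc2a1 and Pfkp the sign at 5 IU/mL on day 5 (−0.07 and −0.06) rested on a gap within counting error. With day 10 left out the number was 14, under a rule over fewer pairs for which the share of all genes was not taken. The pairs of day 10 differed by dose. At 5 IU/mL 13 of 14 enzymes were lower with IL-15, led by Aldoc (−4.59). At 50 IU/mL 0 enzymes were, and the lower genes were Ero1l (−2.89), Slc2a3 (−2.27), Hif1a (−1.87), Ddit4 (−1.71) and Ankrd37 (−1.26).

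Members were higher with IL-2v than with IL-15 on most days. At 5 IU/mL 12, 27 and 12 of 30 members were higher on days 3, 5 and 10 (0.455%, 5.68% and 10.4% of all genes). At 50 IU/mL 3, 18 and 3 were (1.35%, 6.75% and 6.88%), and on day 10 4 were lower (4.64%), namely Pfkl (−1.54), Slc16a3 (−1.16), Pdk1 (−1.09) and Bnip3. The largest member difference of this comparison was that of Slc16a3 on day 5, 5.00 at 5 IU/mL and 3.75 at 50 IU/mL. Slc2a1, Slc2a3, Eno1, Ldha and Ero1l, 5 of 30, were higher in all 6 pairs with a median of at least 2-fold (2.0% of all genes). That count depended on the scaling and on the days taken: it was 3 with TMM scaling, 0 with totals that leave out ribosomal protein genes and mitochondrial ones, 10 without day 3, 1 without day 5 and 16 without day 10. The share of all genes was not taken under these alternatives. A rule over fewer pairs is easier to pass, so these counts cannot be set beside the 2.0%. On day 10 Slc2a1 kept its sign at 50 IU/mL by a gap within counting error (34.5 against 33.3 CPM). So did Slc2a3 at 5 IU/mL (21.6 against 20.3 CPM).

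The pattern over doses was not the same for the 3 cytokines; the differences between them were not tested. For IL-2 6, 28 and 9 of 30 members were at least 2-fold higher at 50 than at 5 IU/mL on days 3, 5 and 10 (2.69%, 11.4% and 4.53% of all genes). Pdk1 was lower on day 10 (−1.03, with 14.4% of all genes lower). TMM scaling moved the median of all genes by 0.299 on day 10. More members were then higher, and Pdk1 was no longer 2-fold lower. The 9 members higher on all 3 days with a median of 2-fold were Slc2a1, Slc2a3, Hk2, Egln3, Bnip3, Higd1a, Ero1l, Ankrd37 and Ddit4 (3.09% of all genes). Hk2 was the only enzyme among them. Ankrd37, also counted on day 5, passed the filter on low values only through the high IL-2 libraries. Ero1l had the steepest dose difference on days 3 and 10 (1.81 and 3.22), and Bnip3 on day 5 (4.48). Leaving out day 3 or day 10 gave 23 or 18 of them, and TMM scaling 17. Here and for IL-15 and IL-2v below, the share of all genes was not taken for such alternatives. A rule over fewer days is also easier to pass. For IL-15 the dose difference grew with time: 0, 9 and 25 members were higher at 50 IU/mL (0.0182%, 2.31% and 4.64% of all genes). On day 5, 8 of the 9 were enzymes, with Bnip3 as the exception (1.20). On day 10 Aldoc (5.14), Slc16a3 (4.12) and Tpi1 (4.10) led. The 7 members higher on all 3 days with a median of 2-fold were Gpi1, Aldoa, Aldoc, Tpi1, Pgk1, Pkm and Bnip3 (1.02% of all genes), so 6 of them were enzymes. Leaving out day 3, 5 or 10 gave 20, 15 or 3 of them, again with no share of all genes to set beside these counts. For IL-2v the sign turned with the day. On day 3 Ankrd37 (−2.49), Egln3 (−1.32) and Aldoc (−1.08) were lower at 50 than at 5 IU/mL (0.764% of all genes), and the median of the members was −0.50. On day 5 Ddit4 (1.62), Hk2 (1.16) and Hif1a (1.13) were higher (3.02%). TMM scaling, which moved the median of all genes by −0.176 there, left only Ddit4 past 2-fold. On day 10 16 were (3.79%), among them Slc2a3 (2.25) and Ero1l (2.18). No member kept 1 sign on all 3 days with a median of 2-fold (1.58% of all genes higher, 0.655% lower), and 6 did without day 3. On day 3 high IL-2v had 86.9% cycling cells and low IL-2v 66.2%. In cells without a UMI of Mki67 or Top2a the enzymes took 1.66% at the low and 1.31% at the high dose on that day, as against 1.64% and 1.31% in all cells.

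From day 3 to day 5 the members held with high IL-2 and with low IL-2v, where 0 of 30 were 2-fold apart in either direction. Among all genes 2.86% were higher and 5.31% lower with high IL-2, and 1.33% and 1.47% with low IL-2v. They dropped with low IL-2 and low IL-15, where 22 and 16 were lower (9.68% and 7.13% of all genes), and less with high IL-15, where Slc16a3, Tpi1 and Hk2 were (2.80%). With high IL-2v 10 were higher (2.02%), led by Ankrd37 (3.28) and Egln3 (1.99). From day 5 to day 10 members rose with low IL-2 and with high IL-15. With low IL-2 12 members were higher and Hif1a lower (3.37% and 1.80% of all genes), and with high IL-15 again 12 were higher and Hif1a lower (0.637% and 4.99%). Slc16a3 (2.21 and 3.29) and Bnip3 (1.87 and 2.51) led both. With low IL-2 Bnip3 was the only hypoxia gene among the 12. There the summed enzymes went from 0.511% to 1.05% of UMIs and the hypoxia genes only from 0.150% to 0.165%. With high IL-15 the enzymes went from 0.874% to 1.14% and the hypoxia genes from 0.205% to 0.277%. Low IL-2v lost most, with 23 lower (4.11%), again with Slc16a3 (−3.66) and Bnip3 (−3.48) in front. High IL-2v had 12 lower (10.2%), high IL-2 8 lower (17.7%), and low IL-15 7 lower (4.91%). TMM scaling moved the median of all genes by 0.377 for high IL-2v and by 0.325 for high IL-2. Fewer members were then 2-fold lower in both. Eno1 was higher (4.06%) with high IL-2 and Pfkl (0.692%) with low IL-15. Over the 6 pairs Hif1a was lower and Eno1 higher with the same sign throughout and a median of 2-fold (all genes: 1.49% lower and 0.0546% higher). With TMM scaling neither was counted (0 members): Hif1a was lower in all 6 pairs with a median of −0.997, just under 2-fold, and Eno1 had a median of 1.32 and was higher in 5 of 6 pairs. Before that scaling Eno1 with low IL-15 was at 119.7 CPM on day 10 and 117.6 on day 5, a gap within counting error. Its values are also uncertain, since 68.1% of its 3′ words occur in other genes.

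Pairs of related genes allowed a measure that does not depend on the library total. The share of 1 gene in the UMIs of its pair is read here only across libraries, since capture can differ between genes. Hk2 made up 4.66% of the UMIs of Hk1 and Hk2 in naive cells, 35.2% on day 3 and 26.1% on day 5 without cytokine. Its share was highest with 50 IU/mL IL-2v on day 5, at 70.3%, and on day 10 it was 16.2% with low and 57.8% with high IL-15. The pair of lactate transporters varied widely. Slc16a3 made up 4.76% of the pair in naive cells and 68.8% on day 3 without cytokine. With IL-15 on day 3 it was 38.1% and 38.3%, and on day 5 10.7% and 12.7%, where high IL-2 had 84.5%. On day 10 high IL-15 had 77.5%, as did IL-2 (77.5% and 77.8%), while low IL-2v had gone from 76.2% to 17.6%. Bnip3 in the pair with Bnip3l ran from 1.79% in naive cells to 54.9% on day 5 with 50 IU/mL IL-2. It stayed between 50.0% and that value on all 3 days with 50 IU/mL IL-2. Ldhb went from 3.57% of the lactate dehydrogenase pair in naive cells to at most 1.19% in any other library.

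**Figure D4:**
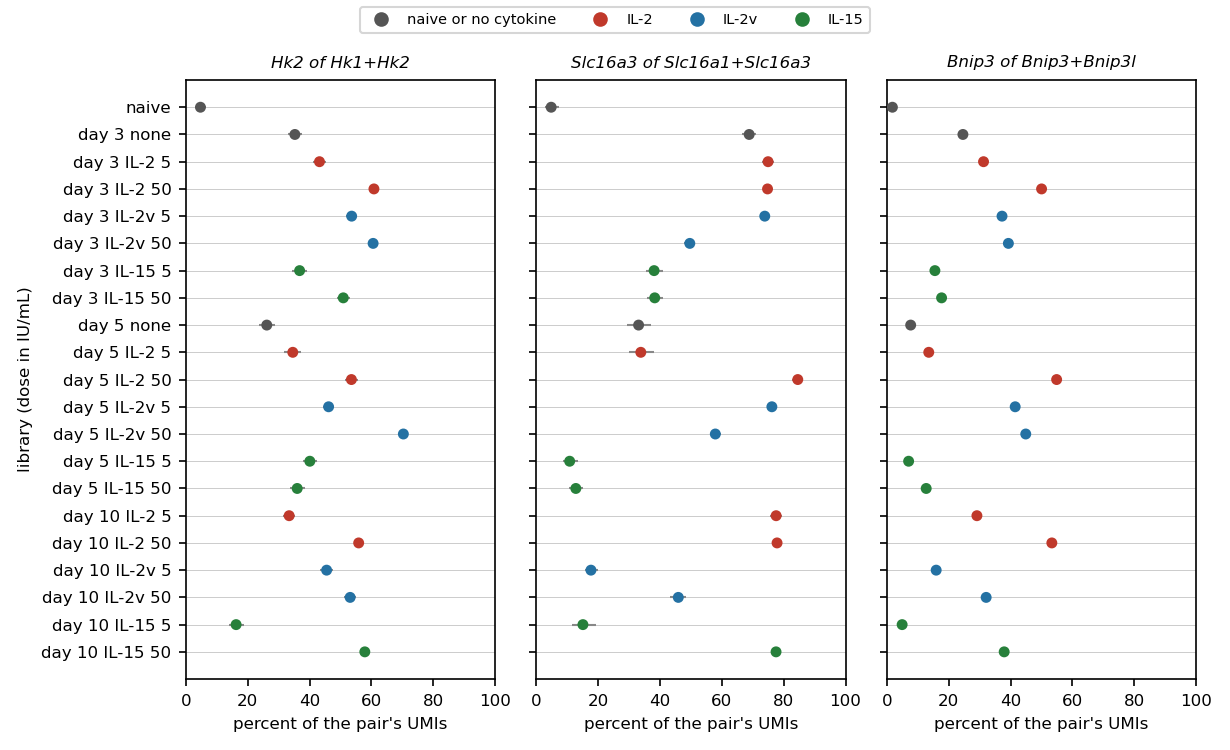
Share of 1 gene in the summed UMIs of a pair of related genes (horizontal axes, percent) in each library (vertical axis, doses in IU/mL), with Clopper-Pearson 95% intervals as bars that cover counting error only. The Slc16a3 share is 12.7% on day 5 and 77.5% on day 10 with 50 IU/mL IL-15.

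Other genes of these pathways were counted from lists chosen by function, with earlier results of these data known. Unless said otherwise, only listed genes that reached a mean of 20 CPM over the 21 libraries were counted. That mean includes the libraries in which a gene was high, so the filter favours genes high there. Outside the members 15 hypoxia genes passed. On activation 6 of them were at least 2-fold higher and 1 lower, against 11% and 5.77% of all genes. Between days 3 and 5 without cytokine 0 were higher and 6 lower, against 2.78% and 8.68%. On day 5, 13 of 15 were higher than without cytokine with high IL-2 (13.8% of all genes), 9 with low IL-2v (9.32%), 8 with high IL-2v (17.9%), and 4 with high IL-15 (6.28%). Ndrg1, a stress-induced gene, differed by 4.97 with high IL-2, 3.88 with low IL-2v and 1.37 with high IL-15. Bhlhe40, a transcription factor gene, differed by 4.62 with high IL-2, and the hormone gene Stc2 by 4.05. Stc2 passed the filter only with the high IL-2 libraries in its mean (23.9, 42.7 and 74.1 CPM on days 3, 5 and 10). On day 3 Hilpda, a lipid droplet gene, was lower with high IL-2v (−1.18) and low IL-15 (−1.45), as Ankrd37 was. Of the glycogen and hexosamine genes 3 of 6 were higher on activation (11% of all genes), Pygl (4.29), Pgm1 (2.25) and Gbe1 (1.35), and 4 of 6 were higher on day 5 with high IL-2 (13.8%). Pygl, the liver form of glycogen phosphorylase, was at 1.48 CPM on day 5 without cytokine, 28.8 with high IL-15 and 88.8 with high IL-2. In high IL-15 Pygl differed by 3.58 and Gbe1 by 1.91. The pentose phosphate list had 2 of 6 genes higher on activation (11%), and Tkt, its transketolase, was the one with the largest difference (1.63). The list of pyruvate entry and the citric acid cycle had 1 of 22 higher on activation (Sdhd, 1.03), against 11% of all genes, and 1 of 22 on day 5 with high IL-2 (Cs, 1.26), against 13.8%. Of the genes of the HIF machinery itself, 6 had a mean of 20 CPM, and 0 of these 6 were past 2-fold in either of these comparisons. Of the 6 further ones in the files, whose mean was lower, 3 were past 2-fold on day 5 with high IL-2, named after their values were seen. Vhl, which marks HIF for destruction, was at 10.8 CPM without cytokine and 29.9 with high IL-2 (1.39), Arnt, the partner subunit of HIF, at 15.6 and 32.8 (1.02), and Epas1, which encodes HIF-2 alpha, at 0.662 and 13.4 (3.12). Of the other glycolysis genes only Pdk3 had a mean of 20 CPM, and it differed by 1.01 on activation.

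The genes outside the list whose level over the 21 libraries was most like the mean of the 14 enzymes were, by Pearson correlation of log2(CPM + 1), Galk1 (0.96), H2-Ab1 (0.96), Fam162a (0.96), Mgarp (0.96), Bsg (0.96), Grhpr (0.95), Pygl (0.94), Stk39 (0.94), Prelid1 (0.94) and Pgm1 (0.93). Bsg encodes basigin, the partner protein of the lactate transporters. Those most like the 11 hypoxia genes were Afg3l2 (0.96), Dubr (0.96), Tpd52 (0.94), Pgm1 (0.93), Ndrg1 (0.93), Srp72 (0.93), Fam162a (0.93), Plod2 (0.93), Avpi1 (0.92) and Hdlbp (0.92). Fam162a and Pgm1 were in both lists. These values describe 21 libraries that share days and depth, and they were picked as the highest.

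Single cells were compared after thinning each to 2000 UMIs, which left out 57 to 393 cells of a library. The median cell spent 0.15% of its UMIs on the 16 enzymes in naive cells and 1.90% on day 5 with 50 IU/mL IL-2. The variance of the enzyme UMIs per cell was 1.15 to 4.03 times their mean in the other libraries, where 1 is the value of pure counting noise. The library of 5 IU/mL IL-2 on day 10 stood apart with 8.13. Its lowest, median and highest cells by decile were at 0.35%, 0.85% and 1.90%, while with 50 IU/mL IL-2 on that day they were at 1.05%, 1.65% and 2.30%. The low IL-2 cells of day 10 thus spread from near the median of low IL-2v on that day (0.45%) to above the median of high IL-2. The 25% of cells with the highest enzyme share in that library were set beside the 25% with the lowest. The enzymes were used to choose the cells, so only other members are read, as a description. The enzymes took 1.88% and 0.421% of UMIs. Of the 16 other members, 12 were at least 2-fold higher in the upper cells, against 1.47% of all genes. Slc16a3 was at 109.6 and 7.70 CPM and Bnip3 at 212 and 20.6. Hif1a (116 and 102 CPM) and Ddit4 (50.0 and 61.3) differed little. The furthest genes outside the members were Mgarp (52.0 and 1.23 CPM) and H2-Ab1 (39.4 and 1.08), followed by the granzyme genes Gzmd and Gzmg and by Fam162a. Cycling cells were 17.1% and 16.8% of the upper and lower cells, and the median cell had 4426 and 3770 UMIs. The same split on day 5 with high IL-15, where cycling cells were 33.3% and 18.3%, had 2 of 16 other members at least 2-fold higher (1.71% of all genes), and on day 3 without cytokine, with 53.4% and 63.0% cycling cells, 8 (1.06%). The part of cycling in these splits was not tested. The share of thinned cells with a UMI of Bnip3 was 0.470% in naive cells, 3.88% on day 5 with high IL-15 and 62.0% with high IL-2, and that of Aldoc was 0.0895%, 23.8% and 33.2%. Without thinning the Bnip3 shares were 0.921%, 8.11% and 72.0%, and the Aldoc shares 0.335%, 39.1% and 45.8%. No cell type that should lack these genes was present in the libraries, so the share that free RNA gives was not measured.

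**Figure D5:**
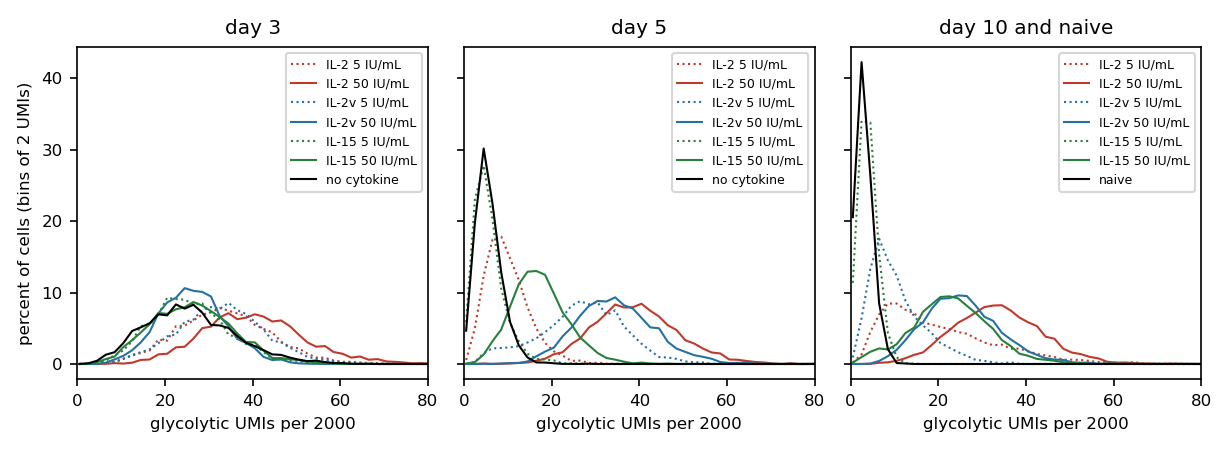
Percent of cells (vertical axis, bins of 2 UMIs) by their UMIs of the 16 glycolytic enzymes after thinning to 2000 UMIs (horizontal axes) on days 3, 5 and 10, with dotted lines for 5 IU/mL and solid lines for 50 IU/mL; the black line is no cytokine on days 3 and 5 and naive cells in the last panel. With 5 IU/mL IL-2 on day 10 (dotted red) cells spread from a decile of 0.35% to one of 1.90% of their UMIs.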

How the data were processed

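RNA of single OT1 CD8 T cells was measured in 21 libraries, 1 per condition. The authors deposited whole-number UMI counts per gene and cell. Cell Ranger (no version), Seurat 4.0.1 and 3.0.2 and the build mm10 are named, with no role, per the submitters' processing notes. The chemistry, gene annotation, strand setting, cell filters and any removal of doublets were not given in the sources used here. A day 7 named in the labels was not analysed here.

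The cells kept had 1000 or more UMIs, 500 or more genes and a mitochondrial share of up to 10%, which removed 2 cells in all. No doublet caller was run, and leaving out cells above 2 times the median UMIs of their library was tried instead. UMIs were summed per library and scaled to CPM from these totals. Differences are of log2(CPM + 1), which understates those of low genes. Genes whose mean over the libraries reached 20 CPM were compared, 5495 of 17516. No p-value is given, since each condition had 1 library. Poisson intervals of CPM and Clopper-Pearson intervals of shares are at 95% and cover counting error only. Other scalings (TMM among them), filters, pseudocounts, folds and sets of cells or days were tried. The calculation was checked on simulated data.

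The members and lists were chosen with earlier results of these data known. Values in every library are given for up to 3 members per role with the widest range and for Gapdh, Ldha and Hif1a. Of the wider lists up to 3 genes with the largest difference are named, as well as the 10 genes nearest to each group. Hilpda was named after its values were seen, as were the genes named in the split of cells by enzyme share and the values by library outside that rule. Promoter windows come from RefSeq. Work was done in Python 3.11.15 with numpy 2.4.6, pandas 2.3.3, scipy 1.17.1 and matplotlib 3.10.9. One gene of the lists of other cells' markers is not reported here.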

Additional observations from a re-analysis of the deposited data

Results flagged for a closer look

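Several contrasts pointed in opposite directions from one day, dose or cytokine to another, judged by the median log2 difference over the 30 members. None of these differences between contrasts was tested, since each rests on 1 library per condition. Between IL-2v and IL-2 the median was 1.58 at 5 IU/mL on day 5, with 23 members at least 2-fold higher with IL-2v, but −0.69 at 5 IU/mL on day 10 and −0.87 at 50 IU/mL on day 3. Slc16a3 showed it most plainly: with 5 IU/mL it was at 106 CPM with IL-2v and 9.28 with IL-2 on day 5, and at 7.41 and 46.5 on day 10.

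Between 50 and 5 IU/mL of IL-2v the median was −0.50 on day 3 and 1.14 on day 10. Ankrd37 went from 35.3 CPM at the low dose to 5.46 at the high dose on day 3, and from 9.37 to 33.3 on day 10.

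From day 5 to day 10 the median was 0.83 for low IL-2 (5 IU/mL) and 0.60 for high IL-15 (50 IU/mL). It was −0.64 for high IL-2, −1.49 for low IL-2v and −0.89 for high IL-2v. From day 3 to day 5 it was 0.63 for high IL-2v, against −1.55 for low IL-2, −1.08 for low IL-15 and −0.52 for high IL-15. Bnip3, for example, went from 118 to 254 CPM for high IL-2v and from 142 to 24.4 for low IL-2 over those days.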

How the results depend on the processing

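The counts for activation, for the cells without cytokine and for cytokines on day 5 stayed within 1.5 times of 23, 20 and 97 under every alternative run. The members' median crossed 0 in 5 comparisons where it lay close to it: low IL-15 on day 5 (−0.09 to 0.02) and high IL-2v on day 3 (−0.09 to 0.12) against no cytokine, day 5 against day 3 for high IL-2 (−0.01 to 0.13) and low IL-2v (−0.10 to 0.07), and IL-2v against IL-15 at 50 IU/mL on day 10 (−0.17 to 0.07). In all, 146 alternative values of these counts were within 1.5 times and 30 were not. With a threshold of 1.5-fold in place of 2-fold the counts were 46 for cytokines on day 3 (19 at 2-fold), 1 for IL-2v against IL-2 (0), 17 for IL-15 against IL-2 (9), 8 for IL-2v against IL-15 (5), 20, 1 and 13 for the doses of IL-2 (9), IL-2v (0) and IL-15 (7), and 4 for day 10 against day 5 (2). TMM scaling, which moved the median of all genes by up to 0.38, gave 3 for IL-2v against IL-15, 17 for the IL-2 dose and 0 for day 10 against day 5. IL-2v against IL-15 also gave 0 with totals without ribosomal protein and mitochondrial genes, 2 with a pseudocount of 10 CPM and 20 with 5 IU/mL alone. The IL-2v dose gave 1 with genes of 20 CPM in either arm and 1 with no filter. Day 10 against day 5 gave 1 with at most 5% mitochondrial UMIs, 1 with 5 IU/mL alone and 1 without Gapdh, Eno1 and Mif, an alternative chosen after seeing the data. Without day 3 the counts were 10 for IL-2v against IL-15, 23 for the IL-2 dose, 6 for the IL-2v dose and 20 for the IL-15 dose. Without day 5 they were 3 for IL-2v against IL-2, 1 for IL-2v against IL-15 and 15 for the IL-15 dose. Without day 10 they were 14 for IL-15 against IL-2, 16 for IL-2v against IL-15, 18 for the IL-2 dose and 3 for the IL-15 dose. For counts over several pairs or days, the share of all genes under an alternative was not taken. Apart from alternatives that leave out days, doses or genes or change the fold, the cause was not tested. Below 10 CPM the Poisson interval had a median half-width of 20.8% of the value, so differences of the lowest members are known less well. Libraries of equal day and dose were compared in pairs as a description, with no test.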
